A study of Mus musculus with 36 samples.

Results

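The comparison described here is that of hypothalami of mice injected with TNFα and a high dose of IL-6 (TNF + IL-6 High) with hypothalami of saline-injected mice (Control), 12 of the 36 arrays of the series and 6 in each group, chosen by the group given in the sample titles. TNF + IL-6 High mice received 15 pg TNFα and 800 pg IL-6 in 1 intraperitoneal injection of 50 µl, and Control mice received 50 µl saline. All mice were male C57BL/6 on a standard diet, were injected shortly before the dark phase and were killed 5 h later. The whole hypothalamus of each mouse was measured on its own Affymetrix Mouse Gene 1.1 ST array, and each mouse counts as 1 replicate. Of the 12 mice injected in each group, 6 were used for the arrays. The groups TNF (15 pg TNFα), IL-6 High (800 pg IL-6) and TNF + IL-6 Low (15 pg TNFα with 50 pg IL-6), with 6 arrays each of which 5 entered the fit in TNF, were used to ask where the combination differed from its parts and from the lower IL-6 dose. Values are log2 intensities that the authors computed with RMA, a method that corrects, normalises and summarises the probes of each transcript cluster, and a log2 difference is the mean of TNF + IL-6 High minus the mean of Control.

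TNFα acts on the receptors Tnfrsf1a and Tnfrsf1b and, through the IKK complex, releases NF-kB, which switches on its own inhibitors as well as chemokines and adhesion molecules. IL-6 binds Il6ra together with the shared subunit Il6st, after which Janus kinases activate the transcription factor Stat3, and Socs3 is the classical feedback target. Peripheral cytokines reach the hypothalamus through the vessels, the circumventricular organs and the vagus nerve, and are known to suppress feeding, which is driven there by neuropeptides such as Npy and restrained by Pomc products and by serotonin released from fibres of the raphe nuclei.

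No gene passed the test between TNF + IL-6 High and Control. Of 15049 genes tested with limma, 0 were higher and 0 were lower at an adjusted p under 0.05 (0% of the genes in each direction), and the smallest adjusted p was 0.9997. At an unadjusted p under 0.05, 120 genes were higher (0.797%) and 189 lower (1.26%), together 309 where 752.5 would be expected with no difference. The standard error of a difference was 0.0958 at the median, with 29 residual degrees of freedom, so a gene of median precision had a 95% interval of 0.196 to either side of its difference. From the 5th to the 95th percentile, the differences of all genes lay between -0.16 and 0.13. Their median was -0.02, and 62.3% of the genes were lower, a share of 48.98% when each array was centred on its median and of 50.8% after quantile normalization.

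**Figure D1:**
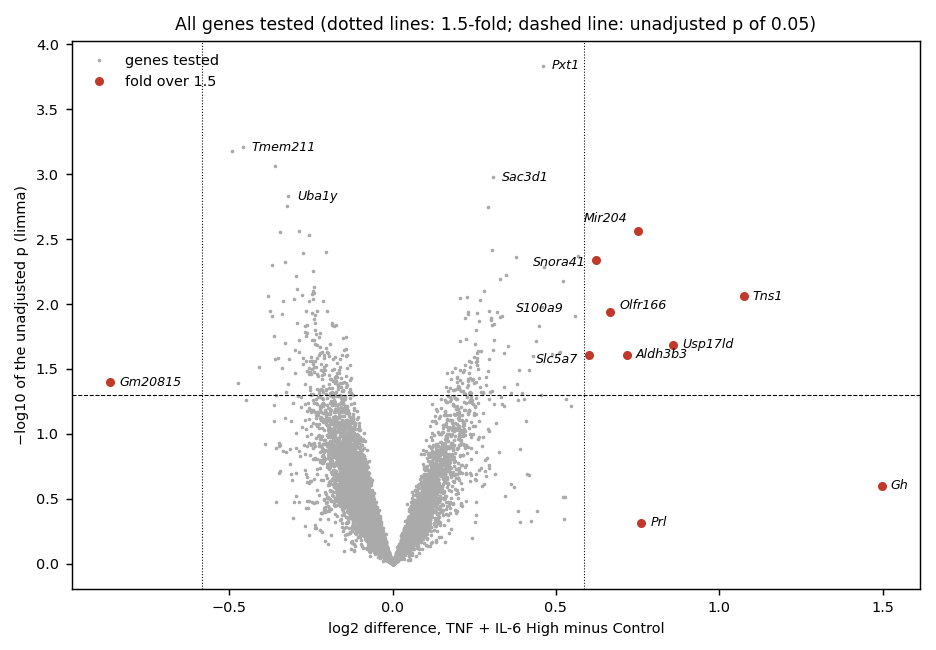
Log2 difference of TNF + IL-6 High minus Control (x axis) against the negative log10 of the unadjusted p from limma (y axis) for the 15049 genes tested, with genes past a 1.5-fold difference in red. The 9 genes past the fold on the right and the 1 on the left do not include Pxt1, which has the smallest p and stands at 0.46.

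The arrays differed from each other in ways that bear on these values. The hypothalamus was recognised by its markers, of which 16 of 18 listed were named on the array and tested, among them Oxt, Avp, Hcrt, Trh and Pomc. All marker levels given here are deviations from the mean of the 6 Control arrays. The mean level of the hypothalamic markers was -0.84 (log2) in TNF + IL-6 High replicate 2. It was -0.18 to 0.26 in the other 5 arrays of that group and -0.38 to 0.31 in Control. On replicate 2 of TNF + IL-6 High, markers of the raphe stood at 0.86, of the thalamus at 0.81 and of oligodendrocytes at 0.61. Those of the hindbrain were at 0.59, of blood cells at 0.55, of midbrain dopaminergic neurons at 0.47 and of the choroid plexus at 0.45. Thalamus markers reached 1.11 in Control replicate 6. In such bulk tissue, fewer cells of a type and less RNA per cell cannot be told apart. Markers of the anterior pituitary, which lies just beneath the hypothalamus, averaged 1.5 and 0.98 in TNF + IL-6 High replicates 3 and 6 and 0.68 in Control replicate 6, while all other arrays lay between -0.41 and 0.12. Gh and Prl are among these markers. Markers of meningeal fibroblasts ranged from -0.74 to 0.38 in TNF + IL-6 High and from -1.10 to 0.85 in Control. The array names of Control replicates 5 and 6 carry the mouse numbers of TNF + IL-6 High replicates 5 and 6 (48 and 54), while the labels give 43 and 49. Both sources call them Control, and they were kept as Control. Their correlations over genes with those 2 TNF + IL-6 High arrays were 0.98913 and 0.98963, so the arrays were not copies of each other. The medians of their correlations with the other 11 arrays were 0.98729 and 0.98828. These correlations do not test which mouse each array came from.

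**Figure D2:**
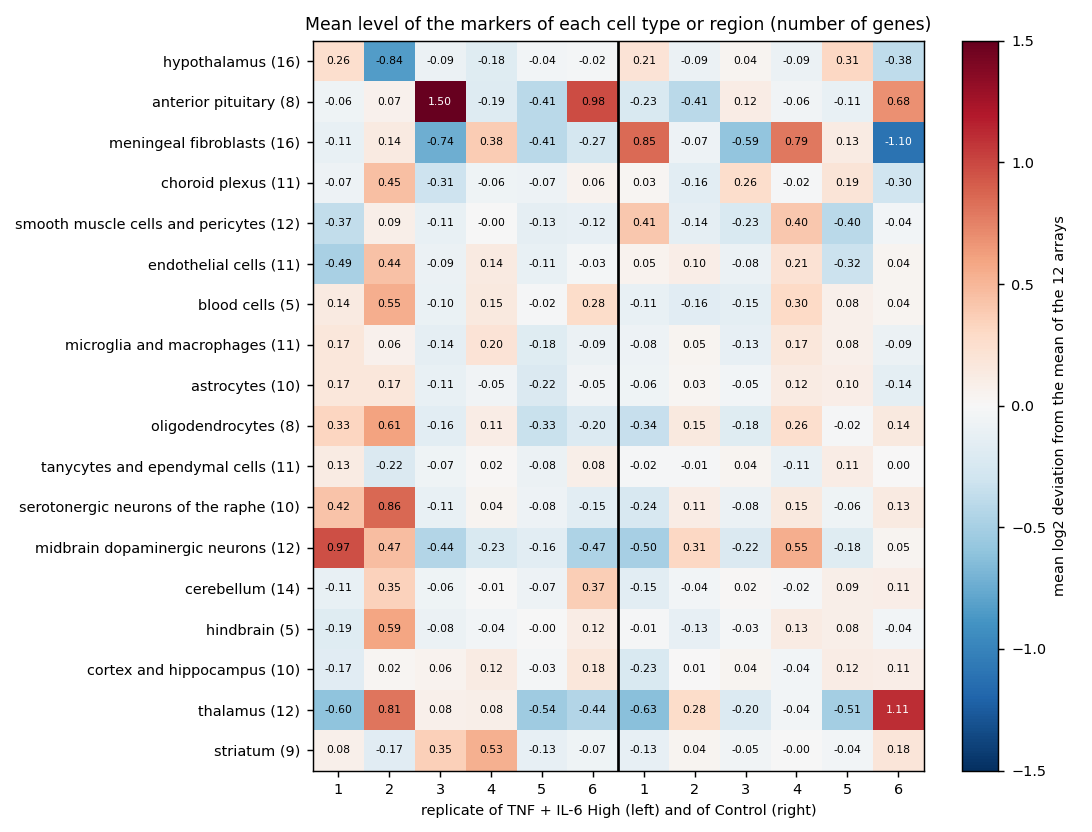
Mean log2 deviation of the markers of each cell type or region (rows, number of genes in brackets) from the mean of the 6 Control arrays, on each TNF + IL-6 High array (left of the line) and each Control array (right of it). The colour bar names the mean of the 12 arrays, but the values are relative to Control. The pituitary markers stand out in replicates 3 and 6 of TNF + IL-6 High and replicate 6 of Control, and the hypothalamic markers are lowest, at -0.84, in replicate 2 of TNF + IL-6 High.

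By size alone, 9 genes were more than 1.5-fold higher (0.0598%) and 1 was more than 1.5-fold lower (0.00664%) in group means. The rule for naming genes covers 6 of these 10, namely Gh, Tns1, Usp17ld, Prl, Aldh3b3 and Slc5a7. The small RNA genes Mir204 and Snora41, the olfactory receptor gene Olfr166 and the predicted gene Gm20815 lie outside it and are named after their values were seen. Olfr166 was at 0.67 and Snora41 at 0.62, and none of the 10 passed the test.

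Gh, the growth hormone of the anterior pituitary, had the largest difference of all genes tested, 2.82-fold in group means (1.5 on the log2 scale, SE 1.29, adjusted p = 0.9997 by limma). Its level on the TNF + IL-6 High arrays had a lowest value of 5.01, a median of 6.60 and a highest value of 11.63, against 4.92, 5.5 and 8.96 in Control. The values of 11.63 and 9.94 belong to replicates 3 and 6 of TNF + IL-6 High and that of 8.96 to replicate 6 of Control, the 3 arrays with high pituitary markers, and the other arrays overlapped, with replicate 2 of TNF + IL-6 High at 7.99. Prl, the pituitary hormone prolactin, had a lowest value of 3.16, a median of 4.42 and a highest value of 8.56 in TNF + IL-6 High, against 3.62, 4.06 and 6.43 in Control, with the same 3 arrays at the top. Its difference was 0.76 (SE 1.08). The 8 pituitary markers tested include Gh and Prl, so the match of these 2 genes with the marker mean is partly built in. Of the 8, 7 were higher and 1 lower with a median of 0.07. Without TNF + IL-6 High replicate 3, Gh was at 0.67 and Prl at 0.08, and without Control replicate 6 they were at 2.09 and 1.17. The part that pituitary tissue in the sample had in these differences was not tested.

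Tns1, which encodes the focal adhesion protein tensin 1, was 1.07 higher (2.11-fold, SE 0.39, adjusted p = 0.9997 by limma). Its lowest, median and highest values were 7.19, 8.22 and 9.56 in TNF + IL-6 High, against 6.91, 7.21 and 7.62 in Control. TNF + IL-6 High replicate 1 lay within the Control range and the other 5 above all of Control. This value comes from 1 of the 6 transcript clusters that the annotation gives to Tns1. The other 5 differed by -0.11 to 0.05, and the mean of the clusters of the gene differed by 0.15, so the difference was seen in 1 cluster of the gene. Aldh3b3, an aldehyde dehydrogenase, had a lowest value of 7.02, a median of 7.62 and a highest value of 8.61 in TNF + IL-6 High, against 6.51, 6.91 and 7.41 in Control, a difference of 0.72 (SE 0.31). Here 4 TNF + IL-6 High arrays were above all of Control. The other cluster of Aldh3b3 differed by 0.26 and the mean of both by 0.49, under the 1.5-fold line. Usp17ld, a deubiquitinase, had 5.39, 5.98 and 7.97 in TNF + IL-6 High, against 5.07, 5.29 and 5.91 in Control, a difference of 0.86 (SE 0.36). Only 3 TNF + IL-6 High arrays were above all of Control, and without replicate 5, the highest array for Tns1, Aldh3b3 and Usp17ld alike, Usp17ld was at 0.51 and Aldh3b3 at 0.52, under the fold.

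Slc5a7, the choline transporter of cholinergic neurons, was 0.60 higher (1.52-fold, SE 0.26). Its lowest, median and highest values were 5.43, 6.48 and 6.93 in TNF + IL-6 High, against 4.82, 5.69 and 6.35 in Control. Replicates 3 to 6 of TNF + IL-6 High lay above all Control arrays, and Control replicate 1 was lowest. Without Control replicate 1 the difference was 0.42. Chat, the enzyme that makes acetylcholine and named after its values were seen, had 4.37, 5.5 and 5.93 in TNF + IL-6 High, against 4.35, 4.87 and 5.46 in Control, a difference of 0.39 (SE 0.25). The same 4 TNF + IL-6 High arrays were highest for both genes. Markers of the striatum, a forebrain region that holds cholinergic neurons, were higher for 7 of 9 genes with a median of 0.10. Their mean level was 0.35 and 0.53 in TNF + IL-6 High replicates 3 and 4 but -0.13 and -0.07 in replicates 5 and 6. It was 0.08 and -0.17 in replicates 1 and 2, and -0.13 to 0.18 in Control. The part of striatal tissue in the difference of Slc5a7 was not tested.

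**Figure D3:**
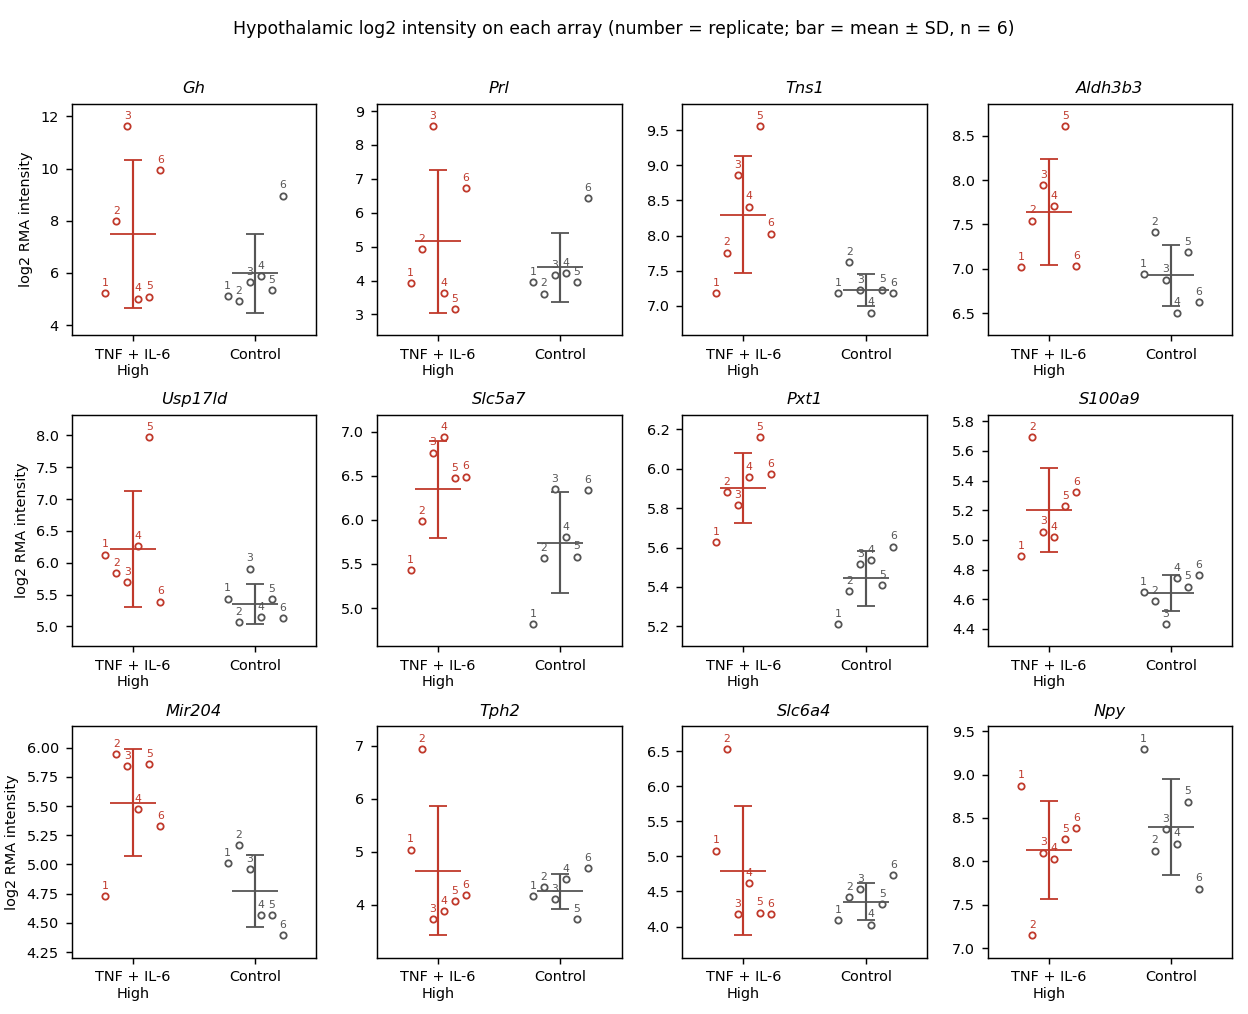
Log2 RMA intensity (y axis, a scale of its own in each panel) of 12 genes on the 6 TNF + IL-6 High arrays (left, red) and the 6 Control arrays (right, grey), numbered by replicate, bars giving the group mean and its SD. Pxt1 and S100a9 are the panels without overlap between the groups, while Gh and Prl are set by 3 arrays and Tph2 and Slc6a4 by replicate 2 of TNF + IL-6 High.

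Mir204 and Mir139 were the microRNA genes of interest, Mir204 for its fold and Mir139 because its groups did not overlap. MicroRNAs repress messenger RNAs that pair with their seed, bases 2 to 8 of the mature strand. The mature 5p strands from RefSeq are given 5′ to 3′ with the seed in capitals, to show that the 2 genes do not share a seed.
mmu-miR-204-5p: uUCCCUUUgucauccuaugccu
mmu-miR-139-5p: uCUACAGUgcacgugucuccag
Mir204 lies on chromosome 19 within Trpm3, a cation channel gene, and its mature 5p strand takes up chr19:22750610-22750631 on the plus strand (GRCm38.p6). Mir204 had a lowest value of 4.73, a median of 5.66 and a highest value of 5.94 in TNF + IL-6 High, against 4.39, 4.76 and 5.17 in Control, a difference of 0.75 (SE 0.23). All TNF + IL-6 High arrays but replicate 1 lay above all of Control. Its host Trpm3 differed by -0.03 (SE 0.07). Mir139 lies on chromosome 7 within Pde2a, a phosphodiesterase gene, with its 5p strand at chr7:101475382-101475403. It had 7.02, 7.32 and 7.49 in TNF + IL-6 High, against 6.62, 6.83 and 7.0 in Control, a difference of 0.46 (SE 0.16), while Pde2a differed by 0.04 (SE 0.11). Of 199 microRNA genes tested, 78 were higher and 121 lower with a median of -0.03. Of these, 10 had an unadjusted p under 0.05 by limma, against 2.05% of all genes tested, and none passed the test. Mir688 (0.57), Mirlet7a-2 (0.51) and Mir504 (0.49) had larger differences than Mir139. The array probes the precursor and its surroundings as well as the mature strand, and the RNA measured at these clusters need not be mature microRNA.

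Gm20815, a predicted gene on the Y chromosome, was 0.86 lower in group means, with a single Control array to account for it. Its highest value was 4.07 in TNF + IL-6 High, against 8.21 in Control replicate 1 and 4.33 in the next Control array. Without Control replicate 1 the difference was -0.17.

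The groups did not overlap for 5 genes that were higher (0.0332%) and 19 that were lower (0.126%) in TNF + IL-6 High. The 5 higher genes were Pxt1, S100a9, Mir139, Fut10 and 4931406B18Rik, of which only Pxt1 is covered by the rule on the smallest p. Pxt1, a gene of male germ cells in which it is linked to cell death, had the smallest p of all genes tested (unadjusted p = 0.000146, adjusted p = 0.9997 by limma). Its lowest, median and highest values were 5.63, 5.92 and 6.16 in TNF + IL-6 High, against 5.21, 5.46 and 5.61 in Control, a difference of 0.46 (1.38-fold, SE 0.11). The gap between the groups was narrow, with TNF + IL-6 High replicate 1 and Control replicate 6 next to each other. Fut10, a fucosyltransferase, had 6.29 to 6.39 in TNF + IL-6 High against 5.94 to 6.27 in Control, a difference of 0.18 (SE 0.09).

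S100a9, a calcium-binding protein that neutrophils carry in large amounts, was 0.56 higher (1.47-fold, SE 0.21, adjusted p = 0.9997 by limma). It had a lowest value of 4.89, a median of 5.14 and a highest value of 5.69 in TNF + IL-6 High, against 4.43, 4.67 and 4.76 in Control. Replicate 2 of TNF + IL-6 High was highest, and without it the difference was 0.46. S100a8, its partner in the calprotectin dimer, had 3.42, 3.78 and 4.54 in TNF + IL-6 High, against 3.32, 3.59 and 3.84 in Control, a difference of 0.28 (SE 0.24), with only replicates 1 and 2 above Control and 0.15 left without replicate 2. Of the 12 blood cell genes listed 5 were tested, S100a9 and S100a8 among them, 3 higher and 2 lower. Ngp, a neutrophil granule protein, was at 0.10 and Cd3e, of the T cell receptor complex, at -0.11. The mean deviation of the 5 genes ranged from -0.10 to 0.55 in TNF + IL-6 High and from -0.16 to 0.30 in Control, with the highest value in replicate 2 of TNF + IL-6 High. The part of blood in the S100a9 difference was not tested.

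Of the lower genes without overlap, Uba1y, a ubiquitin-activating enzyme gene of the Y chromosome, was among the 5 of smallest p. It had 4.12, 4.39 and 4.46 as lowest, median and highest values in TNF + IL-6 High, against 4.53, 4.63 and 4.86 in Control, a difference of -0.32 (SE 0.09). Fzd5, a Wnt receptor, Ly75, an endocytic receptor of dendritic cells, and Map3k5, a stress-activated kinase that TNFα can engage, were at -0.30, -0.24 and -0.19 and are named after their values were seen. The other genes of smallest p in that direction overlapped between the groups. Tmem211 had 3.71, 4.05 and 4.34 in TNF + IL-6 High, against 4.12, 4.47 and 4.95 in Control, a difference of -0.46 (SE 0.12). Tspan10, a tetraspanin, was at -0.34, Mab21l3 at -0.32 and Tmem86a, a lysoplasmalogenase, at -0.29. Among the higher genes, with the small RNAs set aside by the rule, the next smallest p belonged to Sac3d1 (0.31), Incenp (0.29), Fam170a (0.38) and Knstrn (0.35).

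The genes that read the injected cytokines most directly lay close to 0. Of 19 genes of IL-6 receptor and STAT3 signalling, 8 were higher and 11 lower, with a median of -0.01 and a range from -0.15 to 0.13, and none had an unadjusted p under 0.05 by limma. The receptor Il6ra was at 6.13 ± 0.13 in TNF + IL-6 High and 6.11 ± 0.11 in Control (SD, n = 6 each), a difference of 0.02. Il6st, the signal-transducing subunit, differed by -0.08 (SE 0.07), the kinase Jak2 by 0.13 (SE 0.07) and the transcription factor Stat3 by -0.15 (SE 0.10). The feedback inhibitor Socs3 had a lowest value of 4.61, a median of 5.11 and a highest value of 5.35 in TNF + IL-6 High, against 4.90, 5.02 and 5.21 in Control, a difference of 0.02 (SE 0.10). The Control range thus lay within that of TNF + IL-6 High.

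Of 20 genes of TNF receptor and NF-kB signalling, 7 were higher and 13 lower, with a median of -0.01, a range from -0.13 to 0.12 and no unadjusted p under 0.05. The receptor Tnfrsf1a differed by -0.03 (SE 0.14) and Tnfrsf1b by 0.12 (SE 0.08). Nfkbia, the inhibitor that NF-kB switches on, had 7.18, 7.39 and 7.69 in TNF + IL-6 High, against 7.08, 7.34 and 8.09 in Control, a difference of -0.05 (SE 0.14). The chemokine gene Ccl2, another NF-kB target, was at -0.12 (-0.05 without Control replicate 1). The signs of such small medians turned with the scaling: after median centring 13 of the 19 IL-6 genes and 11 of the 20 TNF genes were higher.

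No serotonin gene passed the test, and the means of Tph2 and Slc6a4, which mark serotonergic neurons, rested on 1 array. Among 14 genes that make, carry or degrade serotonin, 7 were higher and 7 lower, with a median of -0.0044, a count of 4 and 10 without TNF + IL-6 High replicate 2 and of 9 and 5 after median centring. Tph2, the rate-limiting enzyme of serotonin synthesis in neurons, had a lowest value of 3.73, a median of 4.13 and a highest value of 6.94 in TNF + IL-6 High, against 3.74, 4.25 and 4.69 in Control. The difference of means was 0.39 (exact permutation test, two-sided, p = 0.602, adjusted p = 0.602 over the 3 genes tested in this way). Slc6a4, the serotonin transporter, had 4.17, 4.41 and 6.53 in TNF + IL-6 High, against 4.03, 4.37 and 4.73 in Control, a difference of 0.44 (exact permutation p = 0.325, adjusted 0.602). Both were highest in replicate 2 of TNF + IL-6 High and next in replicate 1, while no value of replicates 3 to 6 exceeded the Control range. Without replicate 2 the differences were -0.07 for Tph2 and 0.09 for Slc6a4. The 10 raphe markers tested include Tph2 and Slc6a4 themselves, so their mean level is not independent of these 2 genes. That mean was 0.86 in replicate 2 and 0.42 in replicate 1, against at most 0.15 in Control. The mean level of 12 markers of midbrain dopaminergic neurons was 0.47 and 0.97 in the same replicates, against -0.50 to 0.55 in Control. Raphe cell bodies lie outside the hypothalamus, and the part of such tissue in these differences was not tested.

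The enzyme Maob, which degrades monoamines, had a lowest value of 7.70, a median of 8.08 and a highest value of 8.26 in TNF + IL-6 High, against 8.05, 8.24 and 8.68 in Control, a difference of -0.24 (SE 0.12, adjusted p = 0.9997 by limma). All 6 TNF + IL-6 High arrays were below the Control mean. Of 13 serotonin receptors, 5 were higher and 8 lower with a median of -0.03, from -0.17 to 0.19, and 8 and 5 (median 0.03) without TNF + IL-6 High replicate 2. Htr1d, an inhibitory receptor of axon terminals, was at 0.19 (SE 0.11) and Htr2c, a receptor through which serotonin restrains feeding, at 0.11 (SE 0.09), with 0.02 left without Control replicate 1, its lowest array. Of 5 kynurenine pathway genes, 1 was higher and 4 were lower, from -0.09 to 0.08.

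Npy, the orexigenic peptide of the arcuate nucleus, had a lowest value of 7.15, a median of 8.18 and a highest value of 8.87 in TNF + IL-6 High, against 7.68, 8.29 and 9.30 in Control. The difference was -0.26 (exact permutation p = 0.442, adjusted 0.602 over the 3 genes). Replicate 2, the array with the low hypothalamic markers (a list that includes Npy), held the lowest value. Without that array the difference was -0.07 (-0.08 without Control replicate 1, the highest array). Of 12 orexigenic genes, 4 were higher and 8 lower with a median of -0.04, a count that turned to 7 higher and 5 lower (median 0.04) without TNF + IL-6 High replicate 2. Gal, the peptide galanin, had 6.14, 6.95 and 7.45 in TNF + IL-6 High, against 6.75, 7.29 and 7.55 in Control, a difference of -0.34 (SE 0.22), and Hcrt, the precursor of the orexins, was at -0.04.

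Of 23 anorexigenic genes, 5 were higher and 18 lower with a median of -0.04, a count that became 14 higher and 9 lower without TNF + IL-6 High replicate 2. Trh, the thyrotropin-releasing hormone, had a lowest value of 7.15, a median of 8.21 and a highest value of 8.4 in TNF + IL-6 High, against 7.85, 8.42 and 8.88 in Control, a difference of -0.35 (SE 0.22). Pomc and Cartpt, the peptides of the arcuate neurons that oppose feeding, were at 0.05 and 0.01, and Mc4r, the receptor for Pomc products, at -0.15 (SE 0.10). Oxt, the oxytocin gene, had 8.87, 10.2 and 10.5 in TNF + IL-6 High, against 9.80, 10.5 and 10.8 in Control, a difference of -0.45 (SE 0.23), and Avp, the vasopressin gene, was at -0.13. Gal, Trh, Oxt, Avp, Hcrt and Npy all had their lowest TNF + IL-6 High value in replicate 2. Without it Oxt was at -0.23, Trh at -0.16, Gal at -0.19, Avp at 0.12 and Hcrt at 0.23.

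No member of the inflammatory groups passed the test. Of 14 acute-phase and vascular inflammation genes, 6 were higher and 8 lower with a median of -0.02. Lcn2, an iron-trapping protein of the acute phase, had 4.50, 5.27 and 5.82 in TNF + IL-6 High, against 4.58, 5.05 and 5.47 in Control, a difference of 0.16 (SE 0.40), and its groups overlapped throughout. Without TNF + IL-6 High replicate 2 it was at 0.04. Of 20 interferon response genes, 4 were higher and 16 lower with a median of -0.06 (6 and 14 after median centring). Ifit3, an antiviral effector, was the one member with an unadjusted p under 0.05, with 6.03, 6.30 and 6.73 in TNF + IL-6 High, against 6.07, 6.75 and 7.13 in Control, a difference of -0.36 (SE 0.15). Of 15 prostaglandin genes, 5 were higher and 10 lower with a median of -0.05. Ptgis, the prostacyclin synthase of vessel walls, had 4.94, 5.05 and 5.12 in TNF + IL-6 High, against 5.07, 5.34 and 5.44 in Control, a difference of -0.28 (SE 0.09), and 5 of its 6 TNF + IL-6 High arrays were below all of Control. Ptgs2, the inducible cyclooxygenase, was at -0.09.

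Targets of SRF and its cofactors, which run the contractile programme of smooth muscle, were lower for 16 of 17 genes with a median of -0.10, against 62.3% of all genes lower and a median of -0.02. After median centring and after quantile normalization, 13 of 17 were lower. Myl9, the regulatory light chain of smooth muscle myosin, had 6.66, 6.72 and 6.86 in TNF + IL-6 High, against 6.71, 6.81 and 7.88 in Control, a difference of -0.36 (SE 0.16). Acta2, smooth muscle actin, and Myh11, smooth muscle myosin, were also at -0.36, and Flna, an actin crosslinker, at -0.16. Without Control replicate 1, Myl9 was at -0.20, Myh11 at -0.13, Acta2 at -0.05 and Flna at -0.11, and without Control replicate 4 Acta2 was at -0.14 and Flna at -0.11. The Control arrays were split, with the mean deviation of the list at 0.37 and 0.29 in replicates 1 and 4 and at -0.26 to -0.10 in the others, while TNF + IL-6 High lay between -0.24 and -0.0028. Markers of smooth muscle cells and pericytes, a list that shares genes with this one, and of meningeal fibroblasts were high in the same Control replicates, at 0.41 and 0.40 and at 0.85 and 0.79. Meningeal markers were lower for 15 of 16 genes with a median of -0.17, and for 8 of 16 with a median of 0.0026 without Control replicate 1. Without that array, the SRF median was -0.05. Without Control replicate 4, the median was -0.0060 for the meningeal markers and -0.05 for the SRF targets. The part of meningeal and vascular tissue in the SRF difference was not tested.

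Of 22 genes of TGF-beta signalling and extracellular matrix, 7 were higher and 15 lower with a median of -0.09, and Ccn2, a matricellular protein, was lowest at -0.35 (-0.19 without Control replicate 1 and -0.18 without Control replicate 4). Of the 5 upstream regulators that the study lists for this group and that were tested, 3 were higher and 2 lower, from -0.03 to 0.05. The study inferred these regulators with Ingenuity from genes that changed, while the values here are the mRNA of the regulators themselves. The 2 measures differ, and the values do not test the inferred activity. The study chose the regulators on the same samples, so they are no independent evidence. Of 19 immediate early genes, 11 were higher and 8 lower with a median of 0.05, and 9 and 10 without Control replicate 1. Ier2 had 4.21, 4.48 and 4.73 in TNF + IL-6 High, against 3.98, 4.30 and 4.4 in Control, a difference of 0.23 (SE 0.11), and Fosl2, a member of the AP-1 family, was also at 0.23 (SE 0.15). Of 17 clock genes, 2 were higher and 15 lower with a median of -0.05, and 5 and 12 after median centring. Of 17 glucocorticoid response genes, 6 were higher and 11 lower with a median of -0.04, and 9 and 8 without TNF + IL-6 High replicate 2. In all 38 lists, 6 of 434 genes had an unadjusted p under 0.05 by limma, a share under the 2.05% of all genes tested. These were Ier2 and S100a9, which were higher, and Ifit3, Ptgis, Myl9 and the water channel Aqp1 (-0.22, SE 0.11), which were lower. The 2 past the fold were Gh and Prl.

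**Figure D4:**
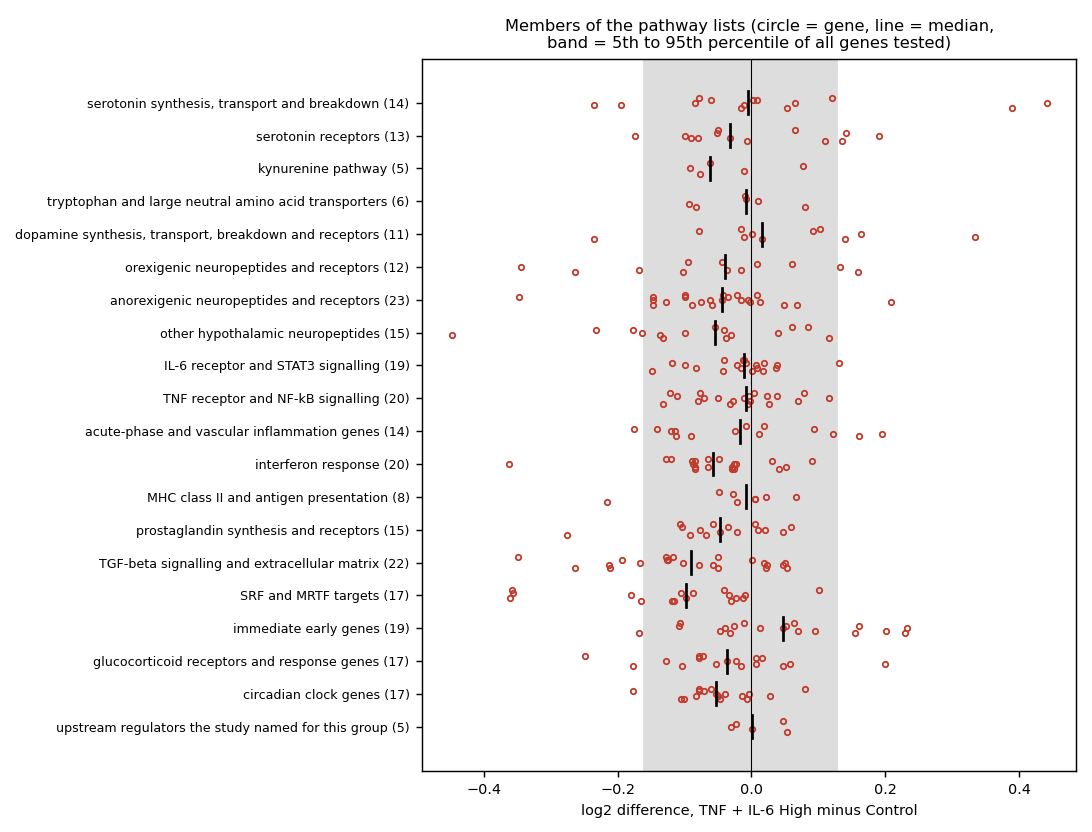
Log2 difference of TNF + IL-6 High minus Control (x axis) for each member of the 20 pathway lists (rows, number of genes in brackets), with the median of each list as a line and the 5th to 95th percentile of all genes tested, -0.16 to 0.13, as a grey band. The medians of the IL-6 and TNF lists lie at -0.01, and that of the SRF and MRTF targets, -0.10, is the lowest of the 20.

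The combination was also tested against its parts, and no gene passed in any of these tests. Against TNF + IL-6 Low, which differs by the dose of IL-6, 0% of the genes had an adjusted p under 0.05 and 5.35% an unadjusted p under 0.05 by limma. The figures were 0% and 2.29% against IL-6 High, 0% and 4.1% against TNF, and 0% and 4.01% for the departure of the combination from the sum of the TNF and IL-6 High effects. The genes named from these tests were chosen after their values were seen. Nol8, a nucleolar protein, was at 7.14 ± 0.11 in TNF + IL-6 High, against 7.48 ± 0.15 with the lower IL-6 dose (SD, n = 6 each), a difference of -0.34 (adjusted p = 0.512 by limma). Best3, a chloride channel protein, was at 3.87 ± 0.18 in TNF + IL-6 High, against 4.33 ± 0.25 with the lower dose, and Oas1a, an interferon-induced antiviral enzyme, at 4.15 ± 0.35 in TNF + IL-6 High, against 3.56 ± 0.34 with the lower dose. Against Control, Oas1a differed by 0.07.

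Frmpd2 was at 4.67 ± 0.14 in TNF + IL-6 High and 5.06 ± 0.25 in IL-6 High, and Angptl4, an inhibitor of lipoprotein lipase, at 4.88 ± 0.15 in TNF + IL-6 High and 5.20 ± 0.22 in IL-6 High (adjusted p = 0.9996 by limma for each). Cebpe, a transcription factor of granulocytes, was at 4.94 ± 0.27 in TNF + IL-6 High and 4.48 ± 0.21 in TNF, and Smn1, of the complex that assembles splicing particles, at 6.09 ± 0.09 in TNF + IL-6 High and 6.43 ± 0.14 in TNF (adjusted p = 0.954 by limma for each). The smallest p of all genes for a departure from additive effects belonged to Zfp354a, a zinc finger gene, at -0.46 (SE 0.12, adjusted p = 0.961 by limma). Its means were 5.55 in TNF + IL-6 High, 5.85 in TNF, 5.75 in IL-6 High and 5.59 in Control.

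Several of the genes named above in TNF + IL-6 High had the following differences in the other treated groups, all of which were set against the same 6 Control arrays. Tns1 was at 0.88 in TNF + IL-6 Low and, with a single cytokine, at 0.22 in TNF, 0.53 in IL-6 High and 0.86 in IL-6 Low. Gh was at 2.08 in TNF + IL-6 Low, 0.50 in TNF, 1.58 in IL-6 High and 0.47 in IL-6 Low. S100a9, not past the fold, was at 0.32 in TNF + IL-6 Low, 0.52 in TNF, 0.39 in IL-6 High and 0.08 in IL-6 Low. Mir204, at 0.75 in TNF + IL-6 High, was at 0.41 in TNF + IL-6 Low, -0.08 in TNF, 0.09 in IL-6 High and 0.46 in IL-6 Low. The difference of Mir204 between TNF + IL-6 High and TNF was 0.83 (SE 0.25, adjusted p = 0.954 by limma). Npy was at -0.59 in TNF + IL-6 Low, -0.03 in TNF, -0.25 in IL-6 High and -0.46 in IL-6 Low. TNF + IL-6 High was not tested against IL-6 Low.

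**Figure D5:**
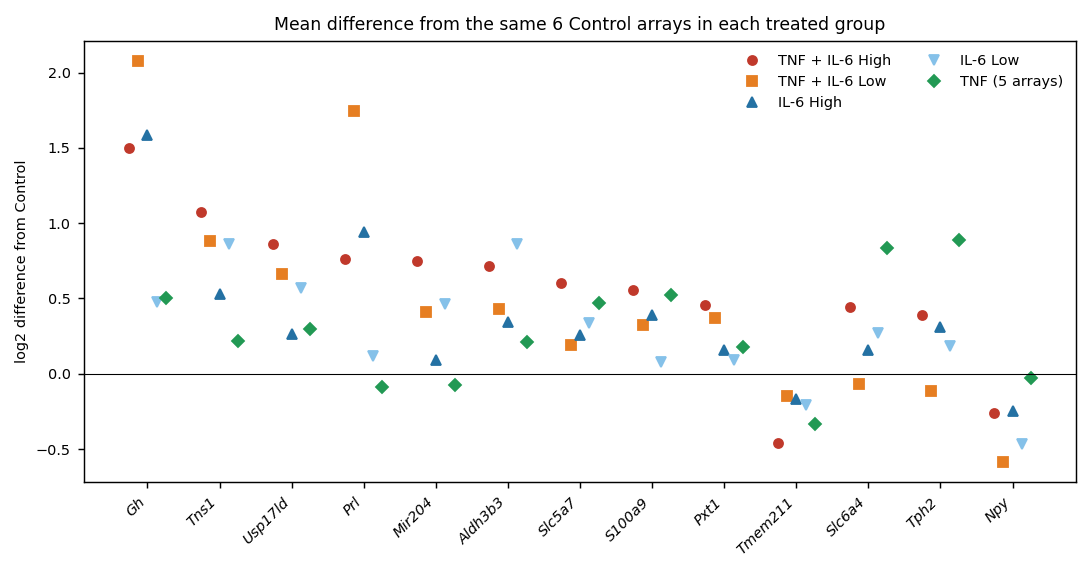
Mean log2 difference from Control (y axis) of 13 genes in TNF + IL-6 High and in the other 4 treated groups, 6 arrays each and 5 in TNF. Gh, Tns1, Usp17ld, Aldh3b3, Slc5a7, S100a9 and Pxt1 were above 0 in all 5 groups, and Tmem211 and Npy were below 0 in all 5. Each time this was against the same Control arrays.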

How the data were processed

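Per the labels and the study's methods, RNA of single hypothalami was hybridised to Affymetrix Mouse Gene 1.1 ST arrays. The authors deposited log2 RMA values (version not given in the sources used here), to which no further normalization was applied. They are given for the array's own transcript clusters, while the methods describe probes remapped to Entrez genes. Of 35556 clusters, 21218 name 1 gene, 1881 several and 12457 none. Clusters of 1 gene were kept, with the cluster of highest mean where a gene had several (1386 genes), which left 18820 genes. The test was limited to the 15049 of them that exceeded an intensity of 20 on 3 or more arrays. A gene could pass with a group median under that intensity. Among the genes named, at least Tph2, Slc6a4, Prl, S100a8, Tmem211, Gm20815, Ier2, Best3 and Oas1a did so in 1 or more groups compared. Their values in those groups lie near the floor.

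A linear model over the 6 groups was fitted with limma 3.58.1 (R 4.3.3), eBayes with an intensity trend, and Benjamini-Hochberg adjustment over all genes tested (threshold 0.05). The model used 35 of the 36 arrays. TNF replicate 4, which stands apart from the others, was left out, and the methods exclude 1 TNF array without naming it. The labels' replicate numbers were not used as a block. Arrays have no read depth, and their number limits the precision. P values rest on separate mice. Fold counts (over 1.5) use group means and carry no test. Tph2, Slc6a4 and Npy were also tested by exact permutation. The fit was tested on simulated data. One gene named in the study is not reported here. Authors' comparisons were not used.

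Genes named are those past the fold, the 5 of smallest p in each direction, up to 3 of smallest p in each of 38 gene lists (20 pathways, 18 cell types or regions), and members that stand for a role. Predicted genes, olfactory receptors and small RNAs lie outside this rule. The lists, the rule and the comparison were chosen with earlier results of these data known. Alternatives were other filters, scalings, array weights, blocks, array sets and the omission of each array in turn.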

Additional observations from a re-analysis of the deposited data

Results flagged for a closer look

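In 15 cases 1 array stood apart from the other 5 of its group by Dixon's criterion, which by chance is met in about 1 in 20 groups. The criterion was applied to the TNF + IL-6 High and the Control values of the genes named here. Not covered were Mir688, Mirlet7a-2, Mir504 and the genes named from the tests against the other treated groups or for additive effects. Part of the 15 would thus be met by chance, and some of these genes were named because of their values. Replicate 2 of TNF + IL-6 High, the array with the lowest hypothalamic markers, was low for Avp (8.344) and Trh (7.154), which are among those markers, and for Pde2a (8.591). It was high for Knstrn (5.005) and Ngp (5.275). In the other arrays of that group, replicate 1 was low for Aqp1 (4.202) and high for Cartpt (8.56), replicate 5 was high for Usp17ld (7.969), and replicate 6 was high for Fosl2 (6.528) and Tspan10 (4.462). Among Control arrays, replicate 6, with high pituitary markers, was high for Gh (8.964) and Prl (6.433), which are among those markers, and for Htr1d (5.394). Replicate 1 was high for Gm20815 (8.212) and replicate 5 was low for Snora41 (3.305). All values are log2 intensities.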

How the results depend on the processing

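No gene passed the test under any of the 27 alternatives to the limma fit, where the smallest adjusted p was 0.4323 (array weights) and the number of genes at an unadjusted p under 0.05 ran from 75 (all 36 arrays) to 1025 (array weights), with 562 without a filter, 173 with a stricter one, 525 without TNF + IL-6 High replicate 1 and 484 without replicates 5 and 6 of both groups. The replicate numbers were not taken to pair the arrays, since deviations of same-numbered arrays correlated by over 0.1 in only 3 of 6 pairs (from -0.020 to 0.255, none the highest of its array), and the replicate block gave 0 genes past the threshold, 368 at an unadjusted p under 0.05 and a smallest adjusted p of 0.7778. Of 3320 alternative values of 129 results, 3245 were counted as unchanged, 31 as moved and 44 as reversed. This tally says little about the stability of sizes. No adjusted p came under the threshold in any alternative, so a gene counted as unchanged by its direction alone. Tns1 counted as unchanged at 1.07 and, as the mean of its clusters, at 0.15. Counts and list medians were allowed a margin. The median of the meningeal markers counted as unchanged at -0.17 and, without Control replicate 1, at 0.0026.

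The count of genes past the fold was 20 higher without replicates 5 and 6 of both groups, and 9 to 19 when single arrays were left out (19 without TNF + IL-6 High replicate 1). The count lower was 6 without a filter, 0 with an intensity over 50, 14 without Control replicates 5 and 6, 11 without replicates 5 and 6 of both groups, 5 without TNF + IL-6 High replicates 2 and 3, and 0 (without Control replicate 1) to 5 (without Control replicate 6) with single arrays left out.

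The cause of the reversals was not tested. Array weights gave -0.057 for Cartpt, 0.033 for Nfkbia, -0.0090 for Ngp, -0.077 for Socs3 and -0.029 for Tph2. Nfkbia was at 0.0068 without Control replicates 5 and 6. Without replicates 5 and 6 of both groups, Nfkbia was at 0.044, Socs3 at -0.062 and Tnfrsf1a at 0.011. Without TNF + IL-6 High replicates 2 and 3, an alternative added after seeing the data, Gh was at 0.33, Avp at 0.13, Hcrt at 0.24, Ngp at -0.082, Pomc at -0.0070 and Prl at -0.032. With single arrays left out, the ranges were -0.29 to 0.12 for Avp, -0.12 to 0.047 for Cartpt, -0.18 to 0.23 for Hcrt, -0.026 to 0.051 for Il6ra, -0.13 to 0.074 for Nfkbia, -0.10 to 0.17 for Ngp, -0.097 to 0.17 for Pomc, 0.080 to 1.17 for Prl, -0.039 to 0.11 for Socs3, -0.12 to 0.048 for Tnfrsf1a, -0.071 to 0.57 for Tph2 and -0.090 to 0.0067 for Trpm3. The adjusted exact permutation p ranged from 0.487 to 0.9762 for Tph2, 0.3429 to 0.9762 for Slc6a4 and 0.4156 to 0.9762 for Npy.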
